A study of Sus scrofa with 12 samples.

Results

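Receptor genes for 4 hormones that reach the newborn from milk or from the pituitary gland were followed in the uterus of neonatal gilts (young female pigs): RXFP1 and RXFP2 for relaxin and related peptides, PRLR for prolactin, GHR for growth hormone and OXTR for oxytocin. They were picked by name, as the table entries whose symbol, or for unnamed entries whose description, was one of these receptors, and all 5 were found among 20390 genes and passed the filter on low values. Uterine messenger RNA had been sequenced in 3 groups of 4 gilts. PND2N gilts (PND 2N in the labels) nursed ad libitum for 48 h, PND2R gilts were given a commercial milk replacer for 48 h, and the uteri of both were taken at 50 h of age. PND0 gilts were killed within 1 h of birth, before any nursing or replacer feeding. The gilts of all groups were crossbreds of 4 breeds, Landrace, Yorkshire, Duroc and Hampshire. The comparison of PND2N with PND2R addresses feeding at one age, whereas each comparison with PND0 joins age and feeding, and both use the same 4 PND0 libraries. Nursing and replacer differ in more than 1 milk component, so no single hormone was varied. Values are the authors' normalized values, which have 1 as their floor in every library. Changes are given as log2 change of (value + 1) ± SE from 1 limma fit of all 12 libraries, with Benjamini-Hochberg adjusted p over the 16862 genes tested and a threshold of 0.05. The labels give no litter, so p-values measure the spread between these animals only.

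Relaxin is a peptide hormone that loosens connective tissue and promotes growth of the reproductive tract, and in pigs it is known to pass from the dam to the nursing young in colostrum. RXFP1, its main receptor, couples to G proteins and raises cyclic AMP, while RXFP2 is the receptor of INSL3 and in humans binds relaxin with lower affinity. PRLR and GHR are class I cytokine receptors that signal through JAK2 and STAT5. OXTR couples to Gq, raises calcium in smooth muscle and is known for its part in uterine contraction.

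None of the 5 receptors passed the threshold in any of the 3 comparisons, and the groups overlapped in all 15 receptor comparisons, where 16.0% of all genes in PND2N against PND0, 28.3% in PND2R against PND0 and 2.55% in PND2N against PND2R did not overlap. In PND2N against PND0 this was 0 of 5 where 3.32% of all genes tested passed. In PND2R against PND0 it was 0 of 5 where 15.0% of all genes passed, and in PND2N against PND2R 0 of 5 where 0.0119% passed, which is 2 genes. Those were the entries LOC100518566, described as a transmembrane protein 126B-like gene, and LOC100514492, a hypothetical protein, both lower in PND2N. At an unadjusted p under 0.05, RXFP1 alone of the receptors was counted, in each comparison with PND0, where 23.9% of all genes in PND2N against PND0 and 37.0% in PND2R against PND0 did so. In PND2N against PND2R 0 receptors and 2.68% of all genes did.

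The 12 libraries had totals of 26534074 to 29544130 in normalized value, and 17.8% to 22.1% of genes were at the floor. Depth in reads is not known, so a value of 1 marks the floor and does not tell low depth from absence. In uterine tissue, HOXA10 (3468 to 8409) and HOXA11 (3827 to 8542), which pattern the uterus, were present in every library. Markers of epithelium, smooth muscle and stroma were above the floor in every library. Of 3 matched markers of fat cells, ADIPOQ was at 1 in all 12, LEP was at 1.00 to 2.22 and PLIN1 at 1.00 to 19.4. The libraries PND2N 1, PND2R 2 and PND2R 3 stood apart, with DES, the muscle filament desmin, at 40049, 33144 and 29022, against 7460.1 to 23439.7 in the other 9. ACTG2, another muscle gene, did not separate them, as PND2N 4 (5860) was above PND2R 2 (5535) and PND2R 3 (5086). VWF, an endothelial marker, was at 24.2, 55.8 and 90.2 in them and at 591 to 3194 in the other 9. KDR, also endothelial, was at 2310, 2222 and 1939, within the 1529 to 2548 of the other 9. PND0 libraries 3 and 4 stood apart from 1 and 2 in epithelial genes, as described beside RXFP2, and in other genes. The endothelium list also differed. Its median relative to the mean of 12 libraries (log2) was 0.06, -0.25, 0.91 and 0.49 in PND0 1 to 4. In whole tissue, fewer cells of a type and less RNA per cell cannot be told apart.

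**Figure D1:**
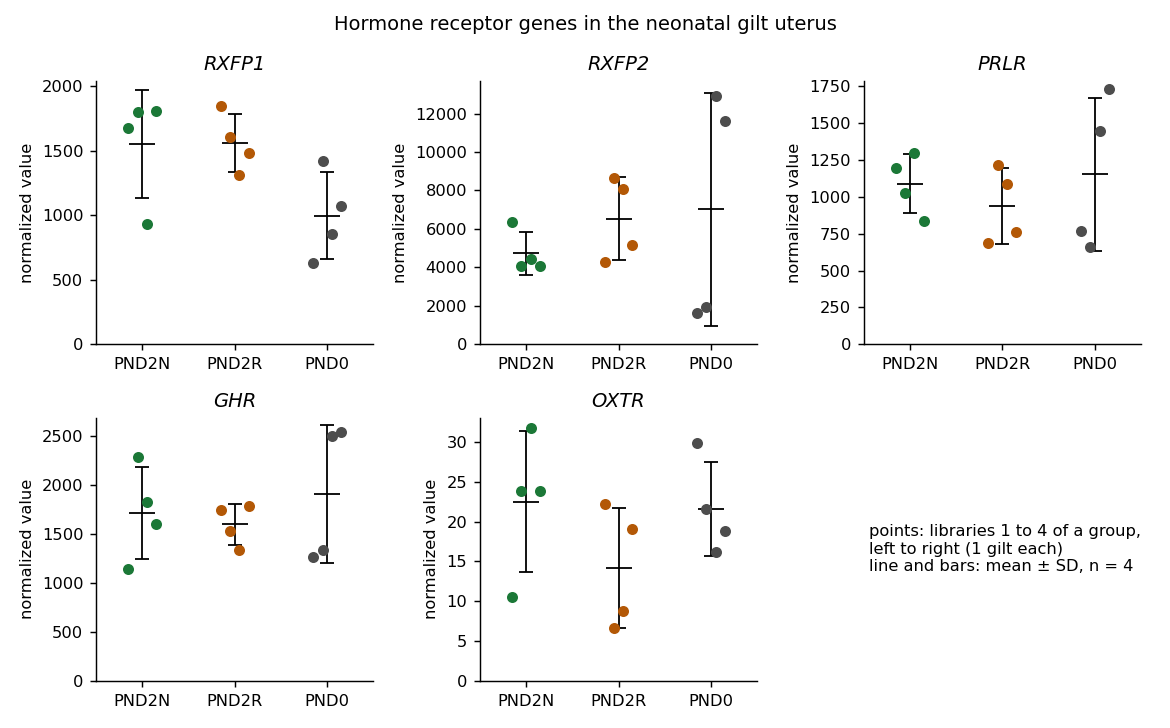
Normalized value (linear axes from 0) of each receptor gene in each gilt, by group, with the mean and SD of 4 gilts. RXFP1 had its lowest values among PND0 gilts with groups that overlap, and RXFP2 in PND0 falls at 1607 and 1932 in one pair of gilts and at 12906 and 11599 in the other.

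RXFP1 had a mean in both day 2 groups about 1.6 times that of newborns, without passing the test. The table lists this gene under a placeholder with the description of a relaxin receptor 1-like gene, at positions 50699551 to 50827064 on the plus strand of chromosome 8 in Sscrofa10.2. Its value was 1678, 1799, 934 and 1812 in the PND2N gilts, 1849, 1608, 1315 and 1483 in the PND2R gilts, and 632, 1425, 859 and 1075 in the PND0 gilts. PND2R 3 (1315) and PND2N 3 (934) lie below the highest newborn, PND0 2 (1425). The means were 1556 ± 419 in PND2N, 1564 ± 225 in PND2R and 997 ± 337 in PND0 (SD, n = 4 each). The log2 change was 0.65 ± 0.27 in PND2N against PND0 (adjusted p = 0.172) and 0.70 ± 0.27 in PND2R against PND0 (adjusted p = 0.0905). Their unadjusted 95% intervals were 0.06 to 1.25 and 0.11 to 1.29. The exact two-sided permutation test gave p = 0.0857 for PND2N against PND0 and p = 0.0571 for PND2R against PND0, where 0.0286 is the smallest that 4 against 4 allows. Between PND2N and PND2R the log2 change was -0.05 ± 0.27, with an interval of -0.64 to 0.55, and 1 of the 4 nursed gilts set the lowest day 2 value. Without the 3 libraries of high DES the changes were 0.60 in PND2N and 0.79 in PND2R against PND0.

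RXFP2 was the most variable of the receptors, and its variation lay within the newborn group. The table describes the entry only as relaxin receptor 2-like, and it spans 8218854 to 8243550 on the minus strand of chromosome 11 in Sscrofa10.2. Its value was 6357, 4048, 4436 and 4054 in PND2N gilts, 4281, 8634, 8076 and 5174 in PND2R gilts, and 1607, 1932, 12906 and 11599 in PND0 gilts. The newborns thus held both the lowest and the highest values of all 12 gilts, with an 8.03-fold range, compared with 1.57-fold in PND2N and 2.02-fold in PND2R. The SD of log2(value + 1) in PND0 was 1.62, larger than that of 98.8% of the genes tested and of 99.8% of 2124 genes with a mean within 2-fold of its own. Means were 4724 ± 1104 in PND2N, 6541 ± 2138 in PND2R and 7011 ± 6077 in PND0. The log2 change was -0.0017 ± 0.61 in PND2N and 0.43 ± 0.61 in PND2R against PND0, and -0.43 ± 0.61 in PND2N against PND2R. The SE pools the spread of all 3 groups, PND0 included. With only PND2N and PND2R in the fit, the SE of their difference was 0.26 (unadjusted p = 0.133, adjusted p = 0.979, limma). The unadjusted intervals were -1.34 to 1.33 in PND2N and -0.90 to 1.77 in PND2R against PND0.

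Epithelial markers moved opposite to RXFP2 among the newborns. KRT8, a keratin of simple epithelium, was at 49821 and 51645 in PND0 1 and 2 and at 14444 and 11099.6 in PND0 3 and 4. Of 5 epithelial markers 4 were matched, none of them at the floor, and their summed value ran from 41117 to 77093 in PND2N, 58929 to 75653 in PND2R and 17831 to 83745 in PND0. The median of the list, relative to the mean of 12 libraries on the log2 scale, was 0.57, 0.69, -1.19 and -1.57 in PND0 1 to 4. The 3 T cell markers, all matched, also differed, with list medians of 0.57, 0.72, -0.48 and -0.38 in the same 4 newborns and sums of 122 to 139.85 in PND2N, 81.3 to 125 in PND2R and 75.5 to 179.9 in PND0. Across the 12 libraries with group means taken out, RXFP2 had r = -0.81 with the epithelial list, but over the 8 day 2 libraries r was 0.43, so the negative value rests on PND0. Among the day 2 gilts, the 3 libraries of high DES had RXFP2 at 6357, 8634 and 8076, above the 4048 to 5174 of the other 5. The part of tissue makeup in these values was not tested.

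**Figure D2:**
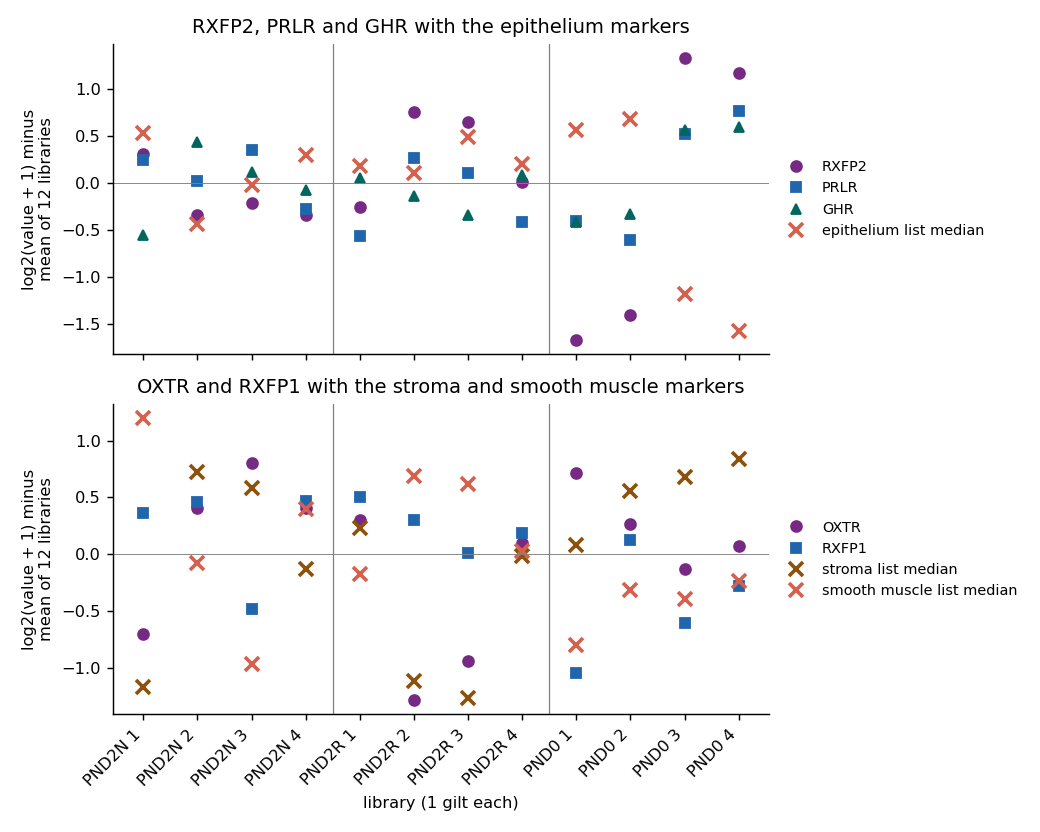
Receptor genes and marker lists in each library, as log2(value + 1) minus the mean of the 12 libraries, one panel for the epithelial list and one for the stroma and smooth muscle lists. RXFP2, PRLR and GHR are high in PND0 3 and 4, where the epithelial list is low (-1.19 and -1.57), and OXTR is low in PND2N 1, PND2R 2 and PND2R 3, where the stroma list is low.

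The ligands of the relaxin receptors were at or near the floor in the uterus, apart from RLN3. The relaxin gene, listed as RLN and named RLN2 in a later gene table, was at 1 in all 12 libraries, as was INSL3, the ligand of RXFP2. RLN3, a relaxin that acts mainly in the brain, was measured at 127, 48.4, 47.4 and 87.2 in PND2N gilts, at 70.3, 146, 71.7 and 63.6 in PND2R gilts and at 43.5, 59.6, 36.2 and 18.8 in PND0 gilts. All PND2R gilts were above all PND0 gilts, as for 12.7% of all genes, but the log2 change of 1.16 ± 0.45 did not pass (adjusted p = 0.0913), nor did that of 0.94 ± 0.45 in PND2N against PND0 (adjusted p = 0.226). RXFP3, the receptor of RLN3, was at 1 in all 12 libraries, and RXFP4 was between 1 and 37.2. Of the related receptors with leucine-rich repeats, LGR4 had a log2 change of -0.56 ± 0.21 in PND2R against PND0 (adjusted p = 0.0815). Of the 13 genes listed for the relaxin family besides the 2 receptors, 9 were matched and 6 tested, and 0 passed in any comparison at the adjusted threshold in limma. Of these 6, 0, 2 and 0 had an unadjusted p under 0.05 in PND2N against PND0, PND2R against PND0 and PND2N against PND2R. The shares of all genes were 23.9%, 37.0% and 2.68%.

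By direction, 1.91% of all genes tested were higher and 1.41% lower in PND2N against PND0, and 7.70% were higher and 7.31% lower in PND2R against PND0. Among 33 tested genes of G protein and cyclic AMP signalling, through which RXFP1 acts, 1 was lower and 0 were higher in PND2N against PND0, and 4 were lower and 0 higher in PND2R against PND0. That is 3.03% against the background of 3.32%, and 12.1% against 15.0%. The list's median log2 changes were -0.28 and -0.35, beside -0.035 and -0.055 for all genes. ADCY1, an adenylyl cyclase that makes cyclic AMP, was at 1.00 to 10.6 in PND2N, 1.00 to 3.82 in PND2R and 13.7 to 24.1 in PND0, with a log2 change of -2.64 ± 0.53 in PND2R (adjusted p = 0.0132) and -2.18 ± 0.53 in PND2N (adjusted p = 0.0469). Some of its day 2 values were at the floor, and another added value moved its size. The change in PND2R was -3.16 with 0.1 added and -1.67 with 5 added, and in PND2N it was -2.58 and -1.41, with an adjusted p of 0.0621 in PND2N with 0.1 added and 0.0275 with 5. ADCY2, a second cyclase, averaged 149.6 ± 37.8 in PND2R and 503 ± 157 in PND0 (log2 change -1.73 ± 0.41, adjusted p = 0.0222). AKAP12 and AKAP13, anchors of protein kinase A, fell by 1.24 and 0.57 on the log2 scale in PND2R. Without the 3 libraries of high DES, which leaves both day 2 groups smaller, 0 of the 33 passed in either comparison. Of all 16862 genes, 275 then passed in PND2N and 254 in PND2R against PND0, where 560 and 2531 had passed with every library. Across the pathway genes named here and below, 3 of 31 calls held with each of the 12 libraries left out in turn, ADCY1, PTGER3 and IGF2R in PND2R against PND0, and 5 of 31 held without the 3 libraries.

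Of 31 tested genes known to respond to relaxin or to act in uterine development, 1 rose and 1 fell in PND2N against PND0 (6.45%, beside 3.32% of all genes), and 3 rose in PND2R against PND0 (9.68%, beside 15.0%). ESR1, an estrogen receptor of the uterus, was at 4962, 7785, 5520 and 4286 in PND2N gilts, 5978, 3910, 4235 and 5425 in PND2R gilts, and 1035, 1574, 3184 and 3033 in PND0 gilts. Every day 2 gilt lay above every newborn, as did 8.14% of all genes in PND2N and 12.7% in PND2R. The log2 change was 1.46 ± 0.33 in PND2N (adjusted p = 0.0404) and 1.27 ± 0.33 in PND2R (adjusted p = 0.0286). The newborn ESR1 values split the same way as RXFP2, with PND0 3 and 4 above PND0 1 and 2. A short second entry under the same symbol, at 64.0 to 185, did not pass (adjusted p = 0.599 in PND2N and 0.556 in PND2R). VEGFA, a growth factor for blood vessels, averaged 3112 ± 548 in PND2N and 5058 ± 947 in PND0, a log2 change of -0.70 ± 0.16 (adjusted p = 0.0425). WNT4, which patterns the female tract, and FZD2, a Wnt receptor, rose by 1.27 ± 0.35 and 1.10 ± 0.33 in PND2R (adjusted p = 0.0323 and 0.0434). Median changes of the list were -0.019 in PND2N and -0.0079 in PND2R. Without the 3 libraries VEGFA alone of these passed (adjusted p = 0.0477), and the ESR1 changes were 1.51 and 1.52 with adjusted p of 0.0672 in PND2N and 0.0969 in PND2R.

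PRLR did not pass between any groups and split within PND0 as RXFP2 did. The gene lies at 21936526 to 21955135 on the minus strand of chromosome 16. Its value was 1199, 1026, 1297 and 838 in PND2N gilts, 685, 1217, 1089 and 760.2 in PND2R gilts, and 767, 663, 1451 and 1732 in PND0 gilts. PND0 3 and 4 were above all 8 day 2 gilts, and PND0 2 was below all of them. Means were 1089.8 ± 202 in PND2N, 938 ± 256 in PND2R and 1153 ± 521 in PND0. The log2 change was 0.02 ± 0.32 in PND2N against PND0 (interval -0.67 to 0.70) and -0.22 ± 0.32 in PND2R against PND0 (interval -0.91 to 0.47). In PND2N against PND2R it was 0.24 ± 0.32, with an interval of -0.45 to 0.93 and an exact permutation p = 0.314. Over the 12 libraries with group means removed, PRLR and RXFP2 had r = 0.90, and over the 8 day 2 libraries r = 0.85. With the epithelial list PRLR had r = -0.74 and 0.06 in turn, so that negative value rests on PND0.

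GHR did not pass between any groups either, and its newborn values also fell into pairs. It lies on the plus strand of chromosome 16 from 29439314 to 29699489. GHR was measured at 1146, 2284, 1824 and 1605 in PND2N gilts, 1744, 1532, 1333 and 1789 in PND2R gilts, and 1266, 1341, 2497 and 2542 in PND0 gilts. PND0 3 and 4 were the highest of the 12. Means were 1715 ± 473 in PND2N, 1599.5 ± 210.0 in PND2R and 1911 ± 703 in PND0. The log2 change was -0.12 ± 0.27 in PND2N and -0.19 ± 0.27 in PND2R against PND0, and 0.07 ± 0.27 in PND2N against PND2R. The intervals were -0.72 to 0.47, -0.78 to 0.41 and -0.53 to 0.66. GHR was low where the epithelial list was high, with r = -0.92 over the 12 libraries with group means taken out and r = -0.92 over the 8 day 2 libraries. EPCAM of this list did not follow the keratins in every day 2 gilt. In PND2N 1, with the lowest GHR of its group, KRT8 was highest (39889) and EPCAM lowest (84.7). In PND2R 3, also lowest in GHR, KRT8 was highest (40042) and EPCAM was at 120, within 79.7 to 156. In PND0, EPCAM was lower in 3 and 4 (59.9 and 191) than in 1 and 2 (323 and 619), as KRT8 was. GHR also moved with other lists, with r = 0.89 and 0.91 for the endothelium list and 0.74 and 0.91 for the stroma list. With RXFP2, GHR had r = 0.57 over the 12 libraries with group means taken out and -0.71 over the 8 day 2 libraries. With PRLR the values were 0.47 and -0.37, so the positive values of both pairs rest on PND0. These points share libraries and tissue makeup, whose part was not tested.

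**Figure D3:**
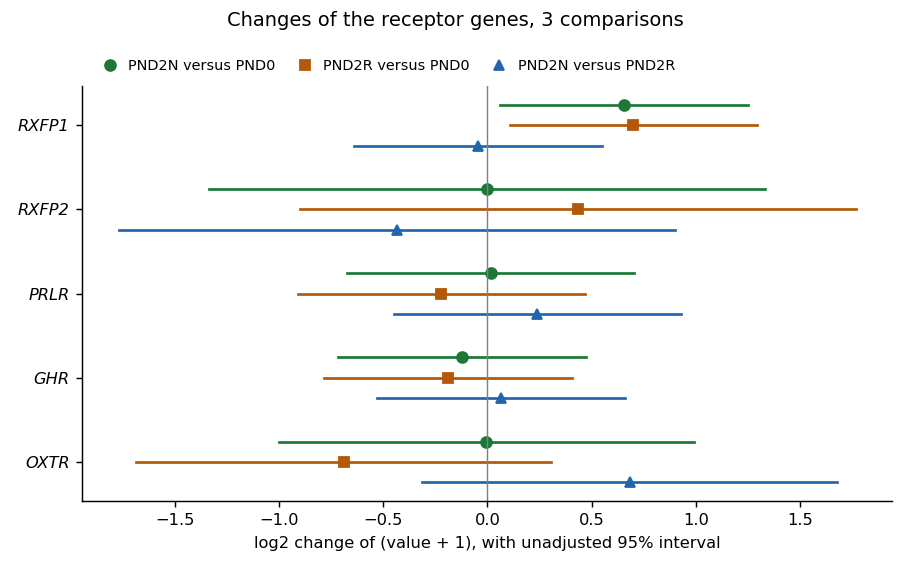
Log2 change of (value + 1) for the 5 receptor genes in the 3 comparisons, with unadjusted 95% intervals. Only the RXFP1 intervals of PND2N and PND2R against PND0 (0.06 to 1.25 and 0.11 to 1.29) lie above 0, and those of RXFP2 are the widest.

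Prolactin and growth hormone transcripts were scarce in the uterus. PRL was between 1 and 3.70 in the 8 day 2 libraries, against 33.7 and 15.4 in PND0 3 and 4 and the floor of 1 in PND0 1 and 2. GH1 was between 1.42 and 37.3, and its highest values were 32.4 and 37.3 in PND2R 2 and 3. IGF1, the growth factor induced by growth hormone in liver, was at 1947, 1869, 1911 and 1282 in PND2N gilts, 1338, 1884, 2434 and 1479 in PND2R gilts, and 1304, 995, 4992 and 4119 in PND0 gilts. As with GHR, PND0 3 and 4 held its highest values, and its log2 changes were -0.40 ± 0.46 in PND2N and -0.39 ± 0.46 in PND2R (adjusted p = 0.592 and 0.548).

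Of 44 tested genes of prolactin and growth hormone signalling, 1 fell and 0 rose in PND2N against PND0 (2.27%), and 5 fell and 0 rose in PND2R against PND0 (11.4%). These shares lie below the 3.32% and 15.0% of all genes that passed in either direction, and above the 1.41% and 7.31% that were lower. The list medians were -0.20 and -0.23, beside -0.035 and -0.055 for all genes. STAT5A, a transcription factor that JAK2 activates under both receptors, was at 147, 302, 326 and 256 in PND2N gilts, 173, 171, 76.2 and 209 in PND2R gilts, and 361, 346, 352 and 339 in PND0 gilts. Every day 2 gilt was below every newborn, as for 7.88% of all genes in PND2N and 15.6% in PND2R, and the log2 change was -1.24 ± 0.34 in PND2R (adjusted p = 0.0331) and -0.50 ± 0.34 in PND2N (adjusted p = 0.367). The difference between PND2N and PND2R was 0.74 ± 0.34 and did not pass (adjusted p = 0.9996). IRS1, an adaptor of insulin and growth hormone signals, averaged 1558 ± 406 in PND2N, 1870.0 ± 591 in PND2R and 3796 ± 926 in PND0, with log2 changes of -1.30 ± 0.28 in PND2N (adjusted p = 0.033) and -1.05 ± 0.28 in PND2R (adjusted p = 0.0298). PIK3R1, a regulatory subunit of PI3 kinase, and the adaptors GAB1 and GAB2 fell by 2.03, 1.26 and 1.51 on the log2 scale in PND2R.

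JAK2 itself did not pass, and 3 of its values stood apart. It was at 35.1, 412, 400.1 and 212 in PND2N gilts, 327, 55.8, 24.4 and 267 in PND2R gilts, and 350.3, 386, 664 and 448 in PND0 gilts. The 3 lowest values are those of PND2N 1, PND2R 2 and PND2R 3, the libraries of high DES. PIK3R1 was likewise at 55.1, 64.6 and 61.6 in these 3 and at 106 to 569 in the other 9. Without them, IRS1 in PND2N alone of the list passed (log2 change -1.08, adjusted p = 0.0356), and STAT5A in PND2R had a log2 change of -0.87 with an adjusted p of 0.0789. SOCS2, a feedback inhibitor of growth hormone signalling, had log2 changes of -0.68 ± 0.40 in PND2N and -1.09 ± 0.40 in PND2R (adjusted p = 0.309 and 0.0788). Of 27 tested class I cytokine receptors, the family of PRLR and GHR, 0 passed in PND2N against PND0 (2 at an unadjusted p under 0.05 in limma, where 23.9% of all genes were), and 1 fell in PND2R against PND0 (3.70%, beside 15.0% of all genes). That was IL7R, a receptor of lymphocytes, at 4.97 ± 2.21 in PND2R and 38.8 ± 24.5 in PND0 (log2 change -2.58 ± 0.76, adjusted p = 0.0414, and -1.97 with 5 added in place of 1). Its adjusted p was 0.132 without the 3 libraries.

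OXTR was near the bottom of the measurable range, at 6.69 to 31.8 in the 12 libraries. The gene lies on the minus strand of chromosome 13 from 70261021 to 70276669. Its value was 10.5, 23.8, 31.8 and 23.8 in PND2N gilts, 22.2, 6.69, 8.80 and 19.1 in PND2R gilts, and 29.9, 21.5, 16.2 and 18.8 in PND0 gilts. Means were 22.5 ± 8.82 in PND2N, 14.2 ± 7.58 in PND2R and 21.6 ± 5.94 in PND0. The log2 change was -0.01 ± 0.46 in PND2N and -0.69 ± 0.46 in PND2R against PND0 (adjusted p = 0.994 and 0.283). In PND2N against PND2R it was 0.68 ± 0.46, with an interval of -0.31 to 1.68 and an exact permutation p = 0.171.

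The 3 lowest OXTR values, 10.5, 6.69 and 8.80, belonged to the libraries of high DES. In those, the median of the stroma list was -1.17, -1.12 and -1.27 and that of the smooth muscle list 1.20, 0.69 and 0.62. The stroma marker DCN differed from its list, as PND2R 2 had the highest value of its group (48549). DCN was the lowest of its group in PND2N 1 (40634.5) and PND2R 3 (40893). For stroma, 4 of 5 markers were matched, none at the floor, with sums of 189089 to 391756 in PND2N, 165405 to 305838 in PND2R and 254641 to 344096 in PND0. For smooth muscle, 4 of 5 were matched, none at the floor, with sums of 62319 to 202983 in PND2N, 94145 to 161708 in PND2R and 76459.9 to 101352 in PND0. OXTR had r = 0.76 with the stroma list and r = -0.85 with the smooth muscle list over the 12 libraries with group means taken out, and 0.93 and -0.86 over the 8 day 2 libraries. Without those 3 libraries the OXTR changes were 0.30 in PND2N and -0.03 in PND2R against PND0, and 0.34 in PND2N against PND2R. The part of tissue makeup or RNA quality in these values was not tested.

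**Figure D4:**
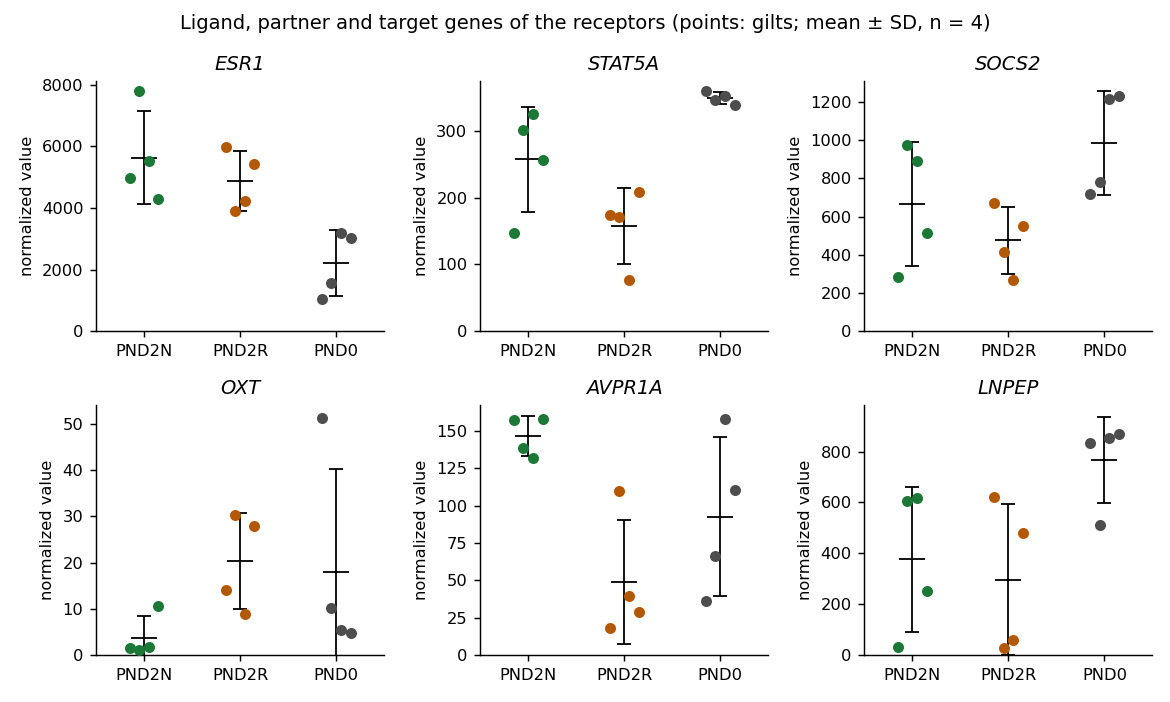
Normalized value of 6 partner genes (ESR1, STAT5A, SOCS2, OXT, AVPR1A, LNPEP) in each gilt by group, on linear axes from 0, with the mean and SD of 4 gilts (bars cut at 0). ESR1 is higher and STAT5A lower in every day 2 gilt than in every PND0 gilt, and AVPR1A is at 132 to 158 in PND2N and at 17.7 to 109.8 in PND2R.

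Oxytocin and a vasopressin receptor had the smallest p of the contraction list in PND2N against PND2R, without passing the threshold. OXT, the oxytocin precursor, was at 1.42, 1.00, 1.71 and 10.6 in PND2N gilts, at 14.1, 30.3, 8.88 and 28.0 in PND2R gilts, and at 51.4, 10.1, 5.42 and 4.72 in PND0 gilts. PND2N 4 overlapped PND2R, and the log2 change of -2.45 ± 0.76 in PND2N against PND2R had an adjusted p of 0.9996. AVPR1A, a vasopressin receptor that also binds oxytocin, was at 157, 139, 132 and 158 in PND2N gilts, 17.7, 109.8, 39.6 and 28.6 in PND2R gilts, and 36.1, 66.2, 158 and 110.6 in PND0 gilts. Every PND2N gilt was above every PND2R gilt, as for 1.39% of all genes, and the log2 change of 1.89 ± 0.55 had an adjusted p of 0.9996. AVP, the vasopressin precursor, was at 8.87 to 109 in PND2N, 20.3 to 57.7 in PND2R and 2.65 to 24.3 in PND0, with log2 changes of 1.90 ± 0.76 and 1.82 ± 0.76 against PND0 (adjusted p = 0.16 and 0.108). LNPEP, the peptidase that degrades oxytocin, was at 32.9, 26.5 and 59.1 in the 3 libraries of high DES and at 252 to 869 in the other 9, and it did not pass in any comparison.

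Of 51 tested genes of oxytocin signalling and contraction, 1 rose in PND2N against PND0 (1.96%, beside 3.32% of all genes), and 4 rose and 5 fell in PND2R against PND0 (17.6%, near the 15.0% of all genes). Their median changes were -0.038 and -0.15. CALM2, a calmodulin that carries the calcium signal, averaged 13694 ± 1409 in PND2N, 13860.3 ± 1151 in PND2R and 9305 ± 1166 in PND0, with log2 changes of 0.56 ± 0.13 (adjusted p = 0.0425) and 0.58 ± 0.13 (adjusted p = 0.0184). PTGER3, a prostaglandin E receptor linked to contraction, was at 823, 1524, 1280.4 and 915 in PND2R and 219, 213, 363 and 448 in PND0, a log2 change of 1.90 ± 0.33 (adjusted p = 0.0091). RHOA, a GTPase that sensitizes muscle to calcium, rose by 0.53 ± 0.12 in PND2R. CACNA1C, the L-type calcium channel, fell by 2.13 ± 0.50, PPP1R12A, a subunit of myosin phosphatase, by 1.70 ± 0.39, and STIM1, a sensor of stored calcium, by 0.70 ± 0.16. Without the 3 libraries of high DES 0 of the 51 passed against PND0 in either day 2 group, where 275 (PND2N) and 254 (PND2R) of all 16862 genes did. In PND2R PTGER3 then had a log2 change of 1.55 and an adjusted p of 0.0634.

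Of 33 other hormone receptors tested, 1 rose and 2 fell in PND2N against PND0 (9.09%, beside 3.32% of all genes), and 1 rose and 5 fell in PND2R against PND0 (18.2%, beside 15.0%), the riser in both being ESR1. IGF2R, which clears IGF2 from the cell surface, was at 3411 to 5183 in PND2N, 3709 to 5396 in PND2R and 6917 to 8759 in PND0, with log2 changes of -0.89 ± 0.17 (adjusted p = 0.0255) and -0.84 ± 0.17 (adjusted p = 0.0138). IGF1R, the receptor of IGF1, fell by 1.05 ± 0.24 in PND2N and by 1.00 ± 0.24 in PND2R (adjusted p = 0.0368 and 0.0220). In PND2R, INSR (insulin receptor) and NR3C2 (mineralocorticoid receptor) fell by 2.73 ± 0.60 and 2.91 ± 0.88 (adjusted p = 0.0175 and 0.0461). The NR3C2 change was -3.35 with 0.1 added (adjusted p = 0.0501) and -2.09 with 5 added (adjusted p = 0.0375). INSR was at 64.3, 60.4 and 64.7 in the 3 libraries of high DES and at 196 to 1083 in the other 9. Without those libraries 3 of the 33 were lower and 0 higher in PND2N, namely IGF1R, IGF2R and INSR, and INSR alone passed in PND2R (log2 change -1.71, adjusted p = 0.0331). Of all 16862 genes, 275 then passed in PND2N and 254 in PND2R. In PND2N against PND2R 0 genes of any of the 7 lists passed in limma, while 6 gene entries did so at an unadjusted p under 0.05. The lists held 221 tested genes, and 2.68% of all genes had such a p.

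**Figure D5:**
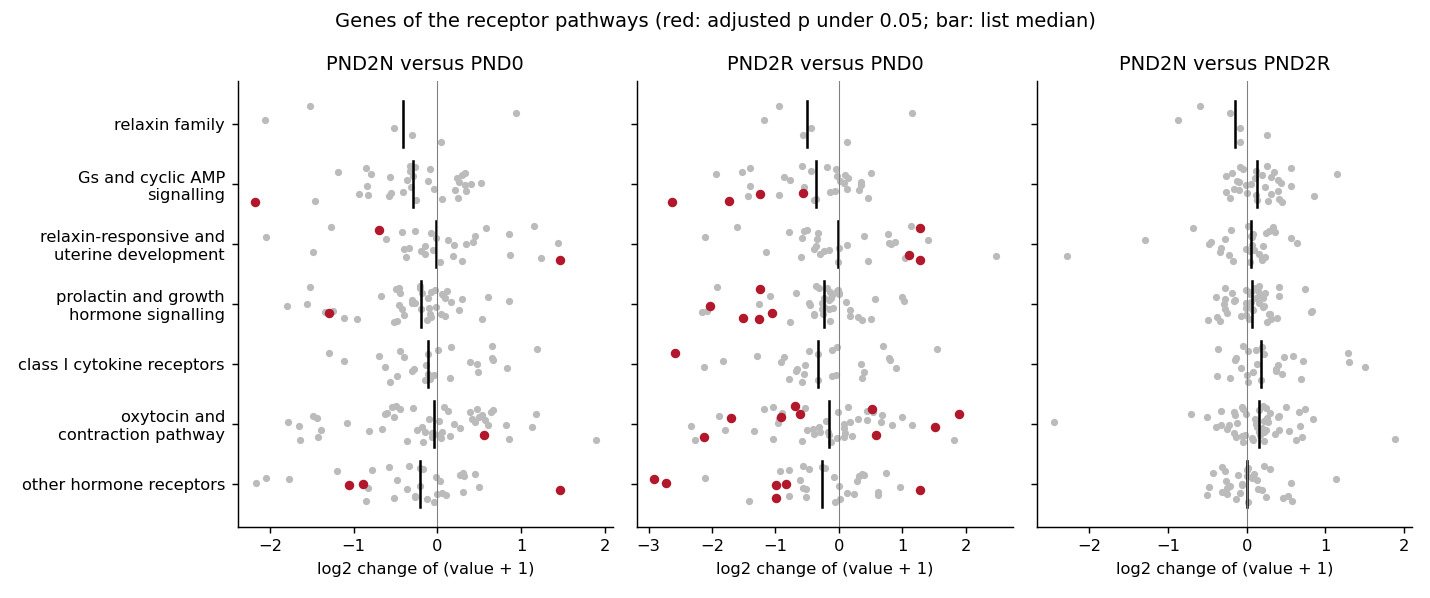
Log2 change of (value + 1) of each tested gene of the 7 pathway lists in the 3 comparisons, with the list median as a bar and genes with an adjusted p under 0.05 in red. Red points are most frequent in PND2R against PND0, where 15.0% of all genes passed, and absent in PND2N against PND2R.

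The genes whose values followed each receptor most closely were taken as the 3 with the highest r after group means were removed, over 12 libraries and among genes with a mean of at least 10. For RXFP1 these were ROR2 (r = 0.92), MFGE8 (0.91) and RHOB (0.86), and over the 8 day 2 libraries their r was 0.93, 0.86 and 0.82. With group means kept, their r over the 12 libraries was -0.19, 0.79 and 0.08. ROR2 had log2 changes of -0.54 in PND2N and -0.44 in PND2R against PND0, opposite in sign to those of RXFP1. For RXFP2 they were KNDC1, ADAMTS10 and SFTPC (0.996, 0.992 and 0.990), with 0.99, 0.96 and 0.93 over the day 2 libraries. SFTPC was at 30.9 and 42.5 in PND0 1 and 2 and at 782 and 832 in PND0 3 and 4. PRLR was followed by SCUBE3, DUOX1 and ADGRG2 (0.96, 0.96 and 0.95), GHR by ZC3H11A, COL5A2 and RABGAP1 (0.99, 0.98 and 0.98) and OXTR by FHAD1, RFFL and ANK3 (each 0.99). COL5A2 encodes a fibrillar collagen chain. These r values were the highest of all genes compared and are given as a description.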

How the data were processed

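Libraries of uterine messenger RNA came from 12 gilts, 1 per animal. Per the submitters' processing notes, bcl2fastq and the build Sscrofa10.2 were used. For the aligner, counting, strand setting and normalization, nothing is given in the sources used here. The deposited table holds the authors' normalized signal per gene (linear, floor 1). Only 27.0% to 32.8% of low values were whole multiples of a common step (within 0.02), so read numbers could not be rebuilt and a count test was left out. There were 0 sample columns left unused.

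Genes were named by identifier through a later gene table (Sscrofa11.1, names only), which held 14468 of 20390 entries, otherwise by the table's symbol. RXFP2 was not matched there, so its name rests on the table's description. Genes above 1 in at least 4 libraries were tested with limma 3.58.1 (R 4.3.3, statmod 1.5.0) on log2(value + 1), trended and robust, without covariates. The receptors and 7 pathway lists (276 genes, 221 tested) were chosen with earlier results of these data known. List genes named are those past the threshold, up to 6 by p, some of the smallest p in lists with fewer than 2 calls, and set ligands and partners. One gene of the receptor list is not reported here. As alternatives, 0.1 or 5 was added in place of 1, the filter was dropped or raised to 10, and TMM or quantile scaling, only the groups compared, plain empirical Bayes, quality weights and each library left out were tried. Leaving out the 3 libraries of high DES was chosen after seeing the data. It takes PND2N 1, PND2R 2 and PND2R 3 from their groups, and the part of group size in the calls lost was not tested. The procedure was tested on simulated data. Tables came from pandas 2.3.3 and numpy 2.4.6 under Python 3.11.15, and figures from matplotlib 3.10.9.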

Additional observations from a re-analysis of the deposited data

Results flagged for a closer look

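In 234 groups of 4 values from 78 named genes, 10 held a sample far from the other 3 by Dixon's criterion, where chance gives about 1 in 20. Among the receptors these were RXFP1 in PND2N 3, at 934 where the other nursed gilts had 1678 to 1812, and RXFP2 in PND2N 1, at 6357 where the others had 4048 to 4436. PND2N 1 is a library of high DES and PND2N 3 is not. Among the partner genes, OXT stood apart in PND2N 4 (10.6) and in PND0 1 (51.4), and RLN3 in PND2R 2 (146). IGF1 in PND2N 4 was at 1282, and IGF1R in PND2N 1 was at 1184. LNPEP in PND0 2 was at 513, RXFP4 in PND0 3 at 37.2 and IL21R, a lymphocyte cytokine receptor, in PND0 2 at 202. ARRB1, an arrestin that binds activated receptors, lay above the PND0 mean in all 4 PND2N gilts and below it in all 4 PND2R gilts. The PND2R side was slight, at 1344 ± 15.9 beside 1416 ± 255 in PND0 (SD). ARRB1 was checked because of its small p in PND2N against PND2R, so the flag is not separate from that choice. Its log2 change in PND2N against PND2R was 0.40, with an adjusted p of 0.9996 in limma, so the difference did not pass the threshold.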

How the results depend on the processing

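The 15 receptor comparisons were refitted under 22 alternatives each. In these 330 fits 0 were past the threshold (lowest adjusted p 0.0501, RXFP1 in PND2R against PND0 without PND0 replicate 2), 296 kept their direction and 34 had the opposite sign. RXFP1 kept its direction against PND0 in all of them.

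Against PND0, signs turned in PND2N for RXFP2 (0.028 with TMM, 0.51 with quality weights), OXTR (0.0058 with 5 added, 0.021 with TMM, 0.45 with quantile scaling, 0.060 with quality weights, 0.30 without the 3 libraries of high DES), PRLR (-0.023 with quantile scaling, -0.036 without the 3 libraries) and GHR (0.32 with quality weights, 0.056 without the 3 libraries). They turned in PND2R for GHR (0.16 with quality weights), and in PND2N against PND2R for RXFP1 (0.014 with quality weights). The cause was not tested. With each library left out in turn, log2 changes in PND2N against PND0 ran from -0.51 to 0.49 for RXFP2, -0.20 to 0.30 for OXTR, -0.21 to 0.25 for PRLR and -0.30 to 0.056 for GHR. In PND2R against PND0 they ran from -0.077 to 0.92 for RXFP2 and -0.45 to 0.012 for PRLR, and in PND2N against PND2R from -0.14 to 0.18 for RXFP1 and -0.086 to 0.25 for GHR.

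The count of all genes past the threshold in PND2N against PND0 was 859 without the filter, 7 with only the 2 groups in the fit, 1248 with quality weights, 275 without the 3 libraries and 26 to 645 with 1 library left out, against 560. In PND2R against PND0 it was 254 without the 3 libraries and 549 to 4101 with 1 left out, against 2531. In PND2N against PND2R it was 1, 118, 5 and 1 to 3 with only those groups, quality weights, without the 3 libraries and with 1 left out, against 2. Of 31 calls among named pathway genes, 3 held with each library left out (ADCY1, PTGER3 and IGF2R in PND2R), 5 held without the 3 libraries and 0 reversed. With only the 2 groups in the fit 0 of the 7 calls of PND2N held, and with plain empirical Bayes 4 did. Leaving out PND2N 1, PND2N 4, PND0 1 or PND0 4 ended all 7 calls of PND2N, and leaving out PND2R 2, PND2R 3 or PND0 4 ended 21, 20 or 19 of the 24 of PND2R.

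No paired analysis was possible because the replicate numbers follow accession order and pair no animals. With 4 gilts per group and no read counts, the unadjusted 95% intervals of PND2N against PND0 ran from -1.002 to 0.989 for OXTR and from -1.34 to 1.33 for RXFP2.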

Other observations

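The gene entries next to the receptors in the table were looked up after the receptor values had been seen, and no receptor interval overlapped another entry. Among the 10 neighbours, the entry 6579 bases before OXTR, LOC100621617, described as caveolin-3-like, was at 142, 77.7, 57.9 and 154 in PND2N gilts, 167, 175, 182 and 177 in PND2R gilts, and 37.4, 12.2, 9.76 and 9.82 in PND0 gilts. Every day 2 gilt was above every newborn, as for 8.14% of all genes in PND2N and 12.7% in PND2R. The adjusted p was 0.0187 in PND2N and 0.0039 in PND2R (limma), where 3.32% and 15.0% of all genes passed. The entries on either side of RXFP1 passed in PND2R against PND0, as 15.0% of all genes did. C8H4orf46, 3842 bases after it, was at 838 to 1086 in PND2R and 342 to 651 in PND0 (adjusted p = 0.0239), and LOC100516145, a hypothetical protein 282788 bases before it, was at 922 to 1792 in PND2R and 345 to 819.8 in PND0 (adjusted p = 0.0297). Neither passed in PND2N (adjusted p = 0.0988 and 0.0715). The neighbours of RXFP2, PRLR and GHR, and the entry after OXTR, did not pass against PND0.

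Of the other entries described as relaxin-3 receptor 1-like besides RXFP3, LOC100153192 and LOC100621794 were above the floor, and neither passed against PND0. LOC100153192 was at 100.5, 96.1 and 79.4 in the 3 libraries of high DES and at 237 to 515 in the other 9.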
